A study of Mus musculus with 26 samples.

Results

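Open promoters bound by CTCF were the distinct regions of the merged M-ATAC peak list that reached to 1 kb or nearer of a GENCODE M21 transcription start and shared at least 1 base with a region of the merged CTCF M-ChIP list. They numbered 2736 of 66726 merged M-ATAC regions, and they made up 13.6% of the 20090 open promoters. The share was 5.68% when at least 50% of both regions had to overlap, and 8.92% when the CTCF region had to be found in both M-ChIP replicates. The remaining 17354 open promoters had no overlapping CTCF region, 5723 regions were bound by CTCF away from a start, and 40913 were distal and unbound. The bound share of distal regions was thus only slightly lower than that of open promoters. Here "bound" means only that the peak lists overlap.

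The libraries of these comparisons came from KH2 mouse embryonic stem cells (mESC), pluripotent cells grown on irradiated feeder cells, which were removed by pre-plating before the experiment. No treatment or genotype separated these groups, which differed in assay. M-ATAC (4 libraries) tags accessible chromatin with a transposase that carries methylated adaptors and is followed by bisulfite conversion, so that a read reports both access and cytosine methylation. CTCF M-ChIP (2 libraries) applies the same tagging to chromatin pulled down with an antibody to CTCF. The control groups CTCF M-ChIP-NC and M-ATAC-NC (2 libraries each) left out the conversion. By the study's methods they were portions of the same tagged DNA set aside before conversion, so they are not separate samples from M-ATAC and CTCF M-ChIP, and which library each portion belongs to is not given in the sources used here. ATAC and CTCF ChIP (2 libraries each) are the standard assays, and RNA-seq of 2 samples was given as merged TPM, an expression level scaled to transcript length and depth. The labels do not say whether the replicates of a group came from separate cultures, so p-values measure only the spread between these libraries, which may be technical.

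CTCF is a zinc finger protein that recognises a long, oriented DNA motif. Together with cohesin it anchors chromatin loops and insulates neighbouring genes, and part of its sites lie at promoters. Methylation of CpGs inside its motif can weaken its binding. Promoters rich in CpGs are usually free of methylation in pluripotent cells.

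The motif is 19 bases long, and the CpGs that start at its positions 5 and 15 are called C2 and C12. The best deposited match to the CTCF motif MA0139.1 is shown for the 6 protein-coding members of highest CTCF enrichment among those with a match in the M-ATAC region, and for 4 members at genes of cohesin and its partners. They are printed 5′ to 3′ along the motif, with the bases of each CpG in capitals and the position in GRCm38 (mm10).
Rapgef1 (chr2:29619683-29619701, + strand): gggccatcagggggCGctg
Med4 (chr14:73509894-73509912, + strand): tgccctgtagatggCGcta
Theg (chr10:79580978-79580996, + strand): tagccagaagagggtgcca
Adck5 (chr15:76576296-76576314, + strand): CGacctcaaggggcCGctg
Zfp384 (chr6:125030700-125030718, - strand): tgcccagcaggaggCGctg
Adprhl2 (chr4:126321744-126321762, - strand): gggccacaagggggCGctg
Stag2 (chrX:42149269-42149287, + strand): CGgcCGacagatggCGcct
Smc3 (chr19:53599906-53599924, + strand): gaaccagcaggaggCGctc
Pds5b (chr5:150673690-150673708, + strand): CGgcCGgtagggggCGctg
Stag1 (chr9:100643570-100643588, + strand): CGgccagcagagggCGgtc
C12 is a CpG in 9 of these 10 matches, all except Theg. C2 is a CpG in Stag2 and Pds5b.

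CpGs were more frequent in the best motif matches of bound promoters than in those of other CTCF sites. The best match was taken in each CTCF region, and a member can overlap more than 1. Among 2402 CTCF regions with a match at members, 27.1% had a CpG at C2 (95% Wilson interval 25.4% to 29.0%), compared with 7.75% of 5331 at bound distal regions and 3.15% of 27648 outside M-ATAC regions. A CpG at C12 was found in 57.2%, 36.7% and 32.4%. Matches with no CpG at all made up 26.0% at promoters, 51.6% at bound distal regions and 60.1% outside M-ATAC regions. The intervals of the 3 sets did not overlap for any of these shares. They cover counting error only, here and for the other intervals given.

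The motif was also less often present and less often strong at promoters. A deposited match lay in the CTCF region of 2376 members (86.8%, 85.5% to 88.1%) and of 92.7% of bound distal regions. The best match had a p of at most 1e-05 in 77.6% of the CTCF regions with a match at members and in 87.1% of those at bound distal regions, with median scores of 16.3 and 17.7. Matches in repeat sequence were rarer at promoters, with 6.54% in soft-masked sequence, against 11.3% at bound distal regions and 38.8% outside M-ATAC regions. More than 1 match in the overlapping CTCF regions was about as frequent in promoters (24.8%) as in bound distal regions (23.9%).

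The deposited matches lie in CTCF peaks, so open promoters without CTCF were examined with a matrix built from those matches, at a limit of 7.84 bits, the 5th percentile of their own scores. The matches of the members are part of that matrix. A match stood in 84.7% of bound and 29.7% of unbound open promoters, and in 88.5% and 16.7% of bound and unbound distal regions. Of 7468 open promoters with a match 31.0% were bound, and of 12622 without a match 3.31% were bound.

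The bound share rose with the score of the match. In 5 groups of rising score it was 7.04%, 13.0%, 20.7%, 50.4% and 90.0% for open promoters, and 6.61%, 9.04%, 22.7%, 62.2% and 94.7% for distal open regions. The Wilson interval of promoters lay above that of distal regions in group 2 and below it in groups 4 and 5, and both overlapped in groups 1 and 3.

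**Figure D1:**
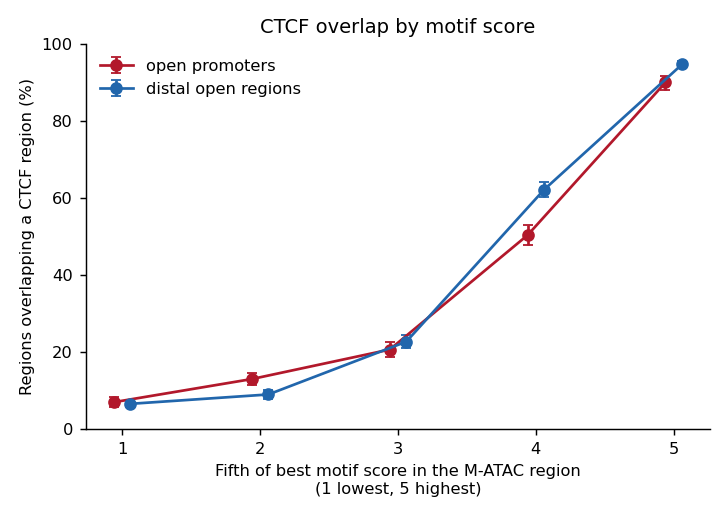
Share of M-ATAC regions that overlap a CTCF region (y axis, %) in 5 groups of the best motif score in the region (x axis, 1 is lowest) for open promoters and distal open regions, with bars for 95% Wilson intervals. The promoters rise from 7.04% to 90.0% and lie above the distal regions in group 2 (13.0% and 9.04%) and below them in groups 4 and 5.

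In the group of highest score 96 open promoters had no CTCF region in the merged M-ChIP list. CTCF ChIP libraries, which the choice of members did not use, held a peak over 19 and 48 of these 96, or 19.8% and 50%, CTCF M-ChIP-NC libraries over 2 and 9, and CTCF M-ChIP libraries over 4 and 1. Of the 867 bound promoters in this group, the CTCF ChIP libraries overlapped 855 and 867. Of 12204 unbound promoters without a match they overlapped 0.942% and 2.68%.

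The motif lay mostly upstream of the start, over a wide range. Positions were measured from the lead start, the protein-coding start nearest to the highest M-ATAC summit of the region. Where no protein-coding start was within 1 kb, the nearest start of any gene was taken. The centre of the best match was a median 78 bp upstream of the lead start, with a median distance of 226.5 bp in either direction. Of 2402 matches 67.5% lay upstream, 28.9% within 100 bp and 73.6% within 500 bp. The accessibility summit was nearer, with a median 40 bp upstream and 46.2% within 100 bp. It lay upstream in 65.6%, almost as often as the motif. The lead start was chosen by its distance from this summit, so the summit was favoured to be the nearer of both. The distance between the CTCF and M-ATAC summits had a median of 55 bp at bound promoters and 32 bp at bound distal regions. It exceeded 200 bp in 17.6% and 7.01%.

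**Figure D2:**
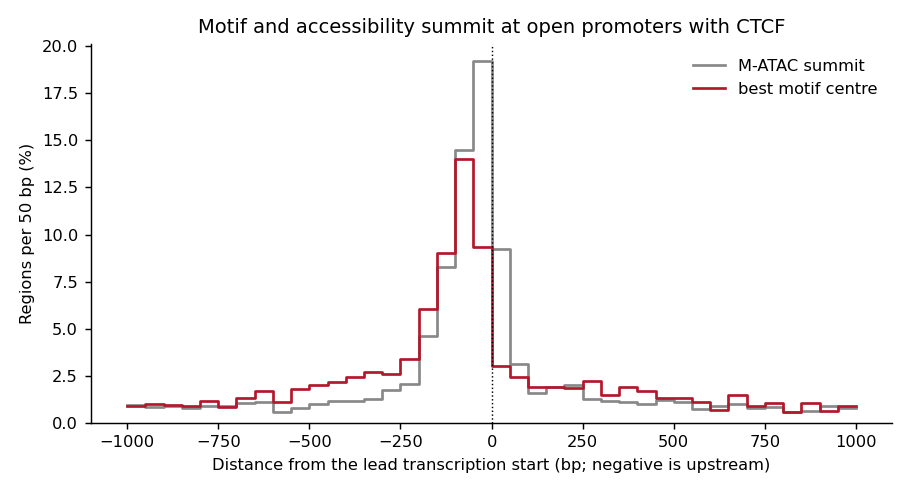
Percentage per 50 bp (y axis) of the M-ATAC summits of 2736 open promoters bound by CTCF and of the 2402 best motif centres in their CTCF regions that lie at a given distance from the lead transcription start (x axis, bp, negative is upstream). The summits are concentrated at the start, with 46.2% within 100 bp, and the motif centres are spread more widely, with 28.9% within 100 bp. Both lean upstream (65.6% of summits and 67.5% of motif centres). The lead start was chosen by its distance from the summit.

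The motif more often pointed in the direction of the gene, mainly upstream of the start. Of the 2402 best matches 58.9% lay on the strand of the lead gene (56.9% to 60.9%), with 62.1% of the upstream ones. Of the downstream ones 52.4% did (48.9% to 55.9%), an interval that holds equal shares of both strands. Within 100 bp of the start the share was 69.5%, or 482 of 694. With the matrix scan, which also covers unbound promoters, the share was 57.6% in bound and 53.4% in unbound promoters. Within 100 bp it was 66.8% (63.2% to 70.1%) in bound and 55.7% (53.3% to 58.0%) in unbound promoters. Downstream of the start the order turned, with 51.2% (47.6% to 54.6%) in bound and 53.6% (51.7% to 55.6%) in unbound promoters, and the intervals overlapped. The scanned match lay upstream in 66.4% of bound and 51.8% of unbound promoters.

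The members resembled other open promoters in sequence and size. Their median width was 413 bp, against 409 bp for unbound promoters and 208 bp for bound distal regions. Median GC content was 61.2%, 62.1% and 53.5%, and the ratio of observed to expected CpGs was 0.652, 0.693 and 0.260. More than 1 summit was called in 31.1%, 28.0% and 9.70%. Over 5 equal groups of open promoters by rising M-ATAC fold, the bound share was 9.33%, 14.9%, 16.5%, 15.6% and 11.7%. It was thus lower in the lowest and highest groups than in those between them. By width the 5 groups ranged from 12.1% to 15.4%.

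Up to 1 kb, the bound share was also larger farther from the start. It was 13.0% where the start lay inside the region, 13.7% at 1 to 500 bp from its edge and 16.1% at 501 to 900 bp. Just inside the limit, at 901 to 1000 bp, 87 of 440 regions were bound (19.8%), and just outside, at 1001 to 1100 bp, 75 of 435 were (17.2%). Of all distal regions 5723 were bound and 40913 were not, a lower share than in any of these groups. Among chromosomes the share was lowest on X, with 42 of 578 open promoters (7.27%), and highest on chromosome 11 (16.3%).

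Methylation at bound promoters was low in both assays. In M-ATAC, 11396 of 1572339 reads at 114582 cytosines with at least 5 reads were methylated, or 0.725%, with chromosomes between 0.530% and 0.924%. Unbound promoters had 0.619% (0.520% to 0.820%), bound distal regions 5.21% and unbound distal regions 8.30%. The merged tables have no replicates, so the difference of 0.106 percentage points between bound and unbound promoters has no error between samples. It was positive on 14 of 20 chromosomes and smaller than the range over chromosomes. With an overlap of at least 50% of both regions it was larger, at 0.789 percentage points. The rate of bisulfite conversion was not examined here. What unconverted cytosines add to values this low was not tested in either assay.

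Low methylation held for most single members. Of 2291 members with at least 5 measured cytosines, 2012 (87.8%) were under 5% methylated, 42 were over 20% and 1 was over 50%. Unbound promoters were under 5% in 90.3% and over 20% in 2.46%, close to the 1.83% of the members. Within the members methylation was 0.756% in motif matches, 0.992% elsewhere in the CTCF region and 0.519% outside it. At scanned matches it was 0.669% in bound and 0.641% in unbound promoters, and 3.56% and 8.35% in bound and unbound distal regions.

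In CTCF M-ChIP, which reads only the molecules pulled down, CpGs of motif matches were 1.49% methylated at bound promoters (6281 cytosines, chromosomes from 0.642% to 3.41%). Bound distal regions had 4.08% (2.84% to 7.12%), and CTCF regions outside M-ATAC regions had 15.7%. The promoter value was lower on 19 of 20 chromosomes. At C2 the values were 0.847%, 2.00% and 4.83%, and at C12 they were 1.84%, 4.41% and 17.0%. Of 1670 promoter CTCF regions with a measured motif cytosine 76.1% had no methylated read, against 55.4% of 2711 distal ones, and 40 and 241 regions were over 20%. At 5102 promoter motif cytosines covered by both assays, M-ChIP gave 1.30% and M-ATAC 0.814%.

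**Figure D3:**
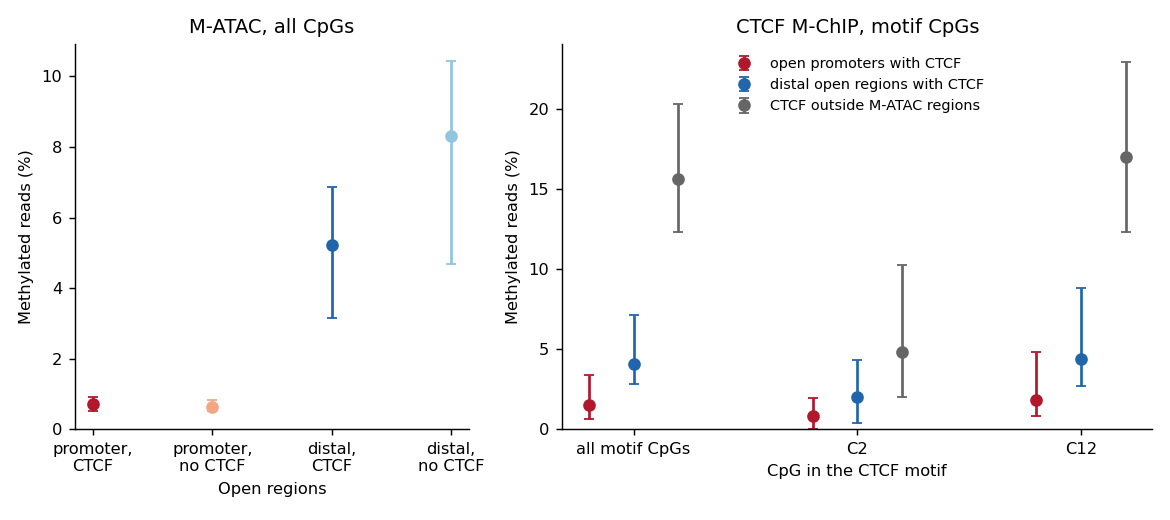
Methylated reads (y axis, %) at all cytosines of M-ATAC regions by class (left) and at motif CpGs in CTCF M-ChIP by class and motif position (right). Points are values of the merged libraries and bars run from the lowest to the highest chromosome. Bound promoters have 0.725% in M-ATAC and 1.49% at motif CpGs in M-ChIP.

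Not every library held each member. M-ATAC libraries held a peak over 57.3%, 62.4%, 56.4% and 54.3% of the members, M-ATAC-NC over 62.0% and 68.2%, and ATAC over 55.0% and 63.8%. The means were 57.6% ± 3.44 (SD, n = 4), 65.1% ± 4.39 (SD, n = 2) and 59.4% ± 6.20 (SD, n = 2). Open promoters without CTCF gave similar shares, with 55.0% to 60.9% in M-ATAC, 63.3% and 69.9% in M-ATAC-NC, and 56.8% and 65.9% in ATAC. CTCF M-ChIP held 90.0% and 68.1% of the members, CTCF M-ChIP-NC 67.9% and 76.0%, and CTCF ChIP 94.9% and 99.5%. The CTCF M-ChIP libraries are also the source of the merged list that chose the members. CTCF ChIP overlapped the most members, and it also overlapped more of the unbound open promoters (1.94% and 5.13%) than M-ChIP (0.259% and 0.127%). The number of peak regions in a library ranged from 22261 to 49633, and the highest 2 were CTCF ChIP.

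The 4 differences of recovery are a description with no test, because the M-ATAC and CTCF M-ChIP lists chose the members. M-ATAC minus M-ATAC-NC was -7.45 percentage points of the members, and M-ATAC minus ATAC was -1.78. When a peak had to cover at least 50% of the member they were -21.3 and -12.0. CTCF M-ChIP minus CTCF M-ChIP-NC was 7.11, and CTCF M-ChIP minus CTCF ChIP was -18.1. With the 50% limit these were 0.914 and -28.9. Without CTCF M-ChIP replicate 1 its difference from CTCF M-ChIP-NC was -3.84, and without ATAC replicate 2 M-ATAC minus ATAC was 2.60.

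**Figure D4:**
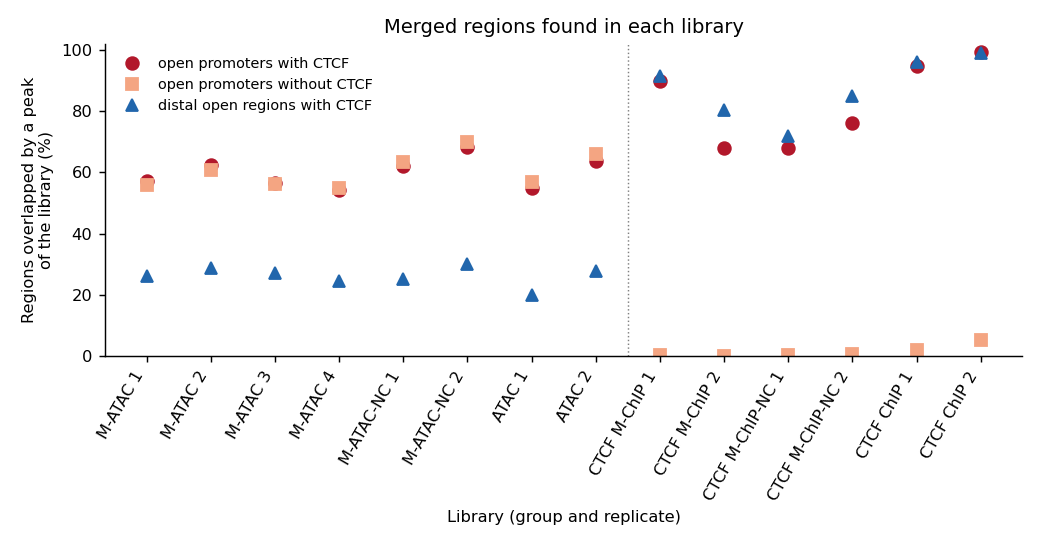
Share of merged regions that a peak of each library overlaps (y axis, %) for each of 14 libraries (x axis, group and replicate), for open promoters with and without CTCF and bound distal regions. In CTCF libraries 67.9% to 99.5% of bound promoters are overlapped, and at most 5.13% of unbound ones.

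A CTCF peak was found over 1426 members (52.1%) in all 6 CTCF libraries and over 7 in none. An accessibility peak was found over 922 members (33.7%) in all 8 libraries and over 365 (13.3%) in none, which appear only in the merged list. All 14 libraries held 434 members (15.9%).

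Among regions with a peak in a library, accessibility was lower at bound than at unbound promoters, by an amount that depended on the regions taken. The difference of median fold enrichment was negative in 6 of 6 M-ATAC and ATAC libraries. Its mean was -0.210 (SD 0.0802, n = 6, exact sign-flip test, two-sided, p = 0.03125, the smallest it can give). In M-ATAC replicate 1, for example, the medians were 8.06 and 8.33. The mean was -0.397 with regions that had a peak in each of the 6 libraries and -0.722 with an overlap of at least 50% of both regions, each with an exact sign-flip p of 0.03125. Leaving out any 1 library gave -0.232 to -0.189, all negative, with an exact sign-flip p of 0.0625, the smallest for 5 libraries. The merged list that chose the regions came from M-ATAC libraries, and a library counted only regions with its own peak. These p-values are therefore a description and no call. In the merged list the order was the opposite, with 8.91 for bound and 8.57 for unbound promoters. Among regions held by all 8 accessibility libraries the merged medians were 13.6 for bound and 14.3 for unbound, and among regions held by none they were 5.39 and 4.58.

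CTCF enrichment was lower at promoters than at bound distal regions in 4 of 4 CTCF M-ChIP and CTCF ChIP libraries. The mean difference of the medians was -0.462 (SD 0.0835, n = 4, exact sign-flip test, two-sided, p = 0.125, the smallest it can give), so the test could not pass 0.05. The CTCF M-ChIP libraries also chose both sets, and each library counted only regions with its own peak. The test therefore decides nothing about CTCF at promoters. With regions that had a peak in each of the 4 libraries the difference was 0.0746 (exact sign-flip p = 0.75), and with an overlap of at least 50% it was 0.437, so the direction depended on the choice of regions. In the merged list, whose CTCF peaks chose the members, the median fold was 10.7 for members (3.54 to 49.8) and 11.5 for bound distal regions.

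Members without a deposited match in their CTCF region formed a weaker group for CTCF. The 360 of this kind had a median merged CTCF fold of 7.20, against 11.1 for those with one, but a median M-ATAC fold of 10.1 against 8.75. In 36.4% of the 360 the matrix scan found a match in the M-ATAC region. Their CTCF recovery was lower in 6 of 6 CTCF libraries, for example 40.0% against 72.4% in CTCF M-ChIP replicate 2 and 98.1% against 99.7% in CTCF ChIP replicate 2. Their accessibility recovery was higher in 8 of 8 libraries. All 6 CTCF libraries held 20.8% of them and 56.9% of members with a match. The start lay inside the region in 74.2% and 63.7%.

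Within the members, CTCF fold went with the motif. In 4 equal groups of rising motif score the median CTCF fold was 8.89, 10.7, 11.7 and 13.0, and CTCF M-ChIP replicate 2 held 57.1%, 69.1%, 79.8% and 83.6%. In 4 equal groups of rising merged CTCF fold, a match stood in 71.5%, 89.3%, 92.3% and 94.3%, and the share held by all 6 CTCF libraries rose from 5.56% to 93.9%. That last rise was largely fixed in advance, because the CTCF M-ChIP libraries behind the merged fold are among the 6. Members with a CpG at C2 had a higher GC content than those without (65.0% and 59.3%), but a similar CTCF fold (10.6 and 11.2). CTCF fold was hardly related to M-ATAC fold (Spearman's rho 0.0132 over 2736 members), to M-ATAC methylation (0.0517 over 2291) or to TPM of the lead gene (-0.0143 over 2636). M-ATAC fold had a rho of 0.191 with TPM and -0.163 with methylation. These are descriptions across regions of the same merged libraries.

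Rapgef1, which encodes an exchange factor for the small GTPase Rap1, had the highest CTCF enrichment among protein-coding members with a match. Its M-ATAC region (chr2:29619560-29619789) reaches into an untranslated exon. Its CTCF fold was 28.5 and 21.0 in M-ChIP, 23.4 and 22.1 in M-ChIP-NC, and 34.9 and 35.1 in ChIP, so both ChIP libraries were above the other 4. Its accessibility was modest, with a peak in 3 of 8 libraries, in M-ATAC replicate 4 (5.13), M-ATAC-NC replicate 2 (5.32) and ATAC replicate 2 (4.73). Of 253 reads 0 were methylated, which allows up to 1.19%, taken as 3 over the number of reads. The upper Wilson bound was 1.50%.

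Med4, a subunit of Mediator, had a region at chr14:73509838-73510256 that overlaps a coding exon. Its CTCF fold was 27.8 and 16.8 in M-ChIP, 18.4 and 24.6 in M-ChIP-NC and 33.5 and 36.3 in ChIP. It was accessible in 8 of 8 libraries, with folds from 4.60 to 8.41, and 2 of 198 reads were methylated. Unlike Rapgef1, it was thus held by every library.

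The other 8 of the 10 highest were Theg, a gene named for spermatid expression, Adck5, the zinc finger gene Zfp384, Adprhl2, an ADP-ribose hydrolase, Rrp1, a ribosomal RNA processing gene, Gins4, a subunit of the GINS replication complex, Rbm17, a splicing factor, and Ajm1. Merged CTCF fold ran from 26.4 at Ajm1 to 29.0 at Theg, and each had a peak in 6 of 6 CTCF libraries. Their accessibility differed widely. Gins4 and Rbm17 were held by 8 of 8 accessibility libraries, with merged M-ATAC folds of 17.8 and 20.1. Theg was held by none, with a merged fold of 5.29, and its match lies in repeat sequence. Methylation was 0.198% at Gins4 (3 of 1516 reads) and 0.308% at Rbm17 (4 of 1299 reads), while Theg had 3 of 5 reads methylated at 1 cytosine (60%, 23.1% to 88.2%).

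The members with the most methylation were few and mostly covered by few reads. Anapc4, a subunit of the anaphase-promoting complex, was the single one of the 2291 members with at least 5 measured cytosines that was over 50%, with 74 of 138 methylated reads at 8 cytosines (53.6%, 45.3% to 61.7%), and its CTCF region held no match. The region (chr5:52855858-52856087) overlaps a coding exon, and its M-ATAC summit lay 586 bp downstream of the start. It had a CTCF peak in 5 of 6 libraries and an accessibility peak in 2 of 8, and the gene had a TPM of 59.2. The kinase gene Vrk1 had 29 of 63 reads methylated, and Topaz1, a germ cell gene, 27 of 60. Ptpn20, a tyrosine phosphatase, had 54 of 134 and Acvr1c, an activin receptor gene, 14 of 29. TPM was 34.6 for Vrk1 and between 0.01 and 0.15 for Topaz1, Ptpn20 and Acvr1c. Of these 5 regions Ptpn20 was held by 6 of 6 CTCF libraries. Each of the 5 had an accessibility peak in only 1 to 3 of 8 libraries.

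Among highly expressed genes, members were not uniformly strong. The highest TPM belonged to the ribosomal protein genes Rps26 (6317) and Rps24 (5597), followed by Dppa5a (5394), a gene active in pluripotent cells, the chaperone gene Hsp90aa1 (4370) and Rpl38 (3987). Hsp90aa1 had a CTCF fold of 15.4 and 11.1 in M-ChIP, 12.5 and 7.64 in M-ChIP-NC and 21.7 and 23.0 in ChIP. Rps26 had a fold of 5.19 in the merged list and a peak in 0 of 6 CTCF libraries. Dppa5a had a fold of 5.70 and a peak in 1 of 6, and no match. The motif of Hsp90aa1 scores 25.0, and that of Rps26 scores 8.30 on the same scale.
Hsp90aa1 (chr12:110703104-110703122, - strand): tgaccagcaggtggCGcta
Rps26 (chr10:128626911-128626929, + strand): CGgactaaaggCGgCGcta
These 2 matches are shown because they have the highest and lowest score among the 5 genes.

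The 3 protein-coding members of highest CTCF fold with no match in the CTCF region were Spata20, Specc1 and Atxn7l1, with merged folds of 22.9, 21.0 and 20.9. Spata20 was found in 6 of 6 CTCF libraries (11.7 to 26.0) and Specc1 too (11.7 to 29.5). Atxn7l1 was found in 5, with no peak in CTCF M-ChIP replicate 2. Single members without a match thus had strong peaks in these libraries.

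A start within 1 kb of a member belonged to 3109 of the 18930 genes with an open promoter, or 16.4%, and 2943 of these had a TPM value. Median TPM was 7.09 (quartiles 0.40 and 27.8) for genes of bound and 6.38 (0.26 and 28.8) for genes of unbound promoters. With protein-coding genes alone the order turned, with 11.7 and 12.6. At least 1 TPM was reached by 68.3% and 66.5%. Starts on both strands lay within 1 kb of 14.3% of bound regions and 18.4% of unbound regions, and 2 or more genes at 16.5% and 20.9%. A protein-coding start was near 85.9% and 87.2%.

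As checks of the cells, all 8 markers of embryonic stem cells were at 95.1 to 657 TPM (sum 2696), led by Pou5f1. Of 8 fibroblast markers 7 were at 1 TPM or more, with a range of 0.08 to 85.3 and a sum of 207, and Lum was at 0.08. The part of feeder cells in the values here was not tested.

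Of the genes of CTCF and cohesin, 17 had an open promoter. Of these 17, 8 were members (47.1%, 26.2% to 69.0%), beside 16.4% of all genes with an open promoter. All 8 had a match, beside 86.8% of all members. All 8 were under 5% methylated, beside 87.8% of members with at least 5 measured cytosines. Cohesin is the ring complex that extrudes chromatin loops until CTCF halts it. Stag2 and Stag1, which encode alternative subunits of the ring, had CTCF folds of 18.2 and 13.9, Smc3, a core subunit, 18.0, and Pds5b, a regulator of its release, 15.3. The 4 were held by 6 of 6 CTCF libraries and by 7 or 8 of the 8 accessibility libraries. Of all 8 genes, 5 were held by 6 of 6 CTCF libraries and 6 by 8 of 8 accessibility libraries. At Pds5b, CTCF fold was 13.3 and 7.30 in M-ChIP, 9.56 and 9.65 in M-ChIP-NC and 14.9 and 24.3 in ChIP, a wide spread with the lowest value in M-ChIP replicate 2. The motifs printed above lay at -39 bp from the start for Stag2, -40 bp for Pds5b, -483 bp for Smc3 and 131 bp for Stag1.

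Ctcf itself, named after its values were seen, was among the 8. Its region at chr8:105635982-105636926 had a merged CTCF fold of 12.6, a peak in 5 of 6 CTCF and 8 of 8 accessibility libraries, and 0 of 1428 methylated reads, which allows up to 0.210%.

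Clustered protocadherins, cell-surface proteins whose promoters are known CTCF sites, had the highest share of all lists. Only 17 of 57 annotated genes had an open promoter, and 11 of the 17 (64.7%, 41.3% to 82.7%) were members, beside 16.4% of all genes with an open promoter. They were expressed at up to 3.43 TPM, with 10 of 11 under 1 TPM, and a match was deposited for 7. Pcdhgb6, Pcdhga1, Pcdhac1 and Pcdhga12 had the highest CTCF folds, from 12.7 to 16.5, and none of the 11 was held by all 8 accessibility libraries. These genes are close copies of each other, so how the authors' pipeline placed reads among them is uncertain, TPM included.

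Cytoplasmic ribosomal protein genes were members in 22 of 81 cases (27.2%, 18.7% to 37.7%), beside 16.4% of all genes. They had a median CTCF fold of 9.82, against 10.7 for all members, and TPM from 127 to 6317. Rpl5, Rps3a1 and Rplp0 had the highest folds, from 16.4 to 20.7. At Rpl5, CTCF fold was 15.4 and 14.1 in M-ChIP, 7.19 and 11.2 in M-ChIP-NC and 29.7 and 27.3 in ChIP. All 22 were under 5% methylated, beside 87.8% of members with at least 5 measured cytosines. Of the 22, 11 were held by 6 of 6 CTCF libraries, beside 52.1% of all members. Mitochondrial ribosomal protein genes were members in 14 of 76 cases (18.4%), near the share of all genes. Each had a match, beside 86.8% of all members, and CTCF folds were highest at Mrpl38 (24.0) and Mrps33 (20.3). Processed pseudogene copies of ribosomal genes were not examined.

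For the other lists the interval of the share held 16.4%, except for histones. Of the core pluripotency genes 3 of 19 were members. Fgf4, a growth factor gene, had a CTCF fold of 17.6 and a peak in 6 of 6 CTCF libraries. Tbx3 had 8.73 and a peak in 5. Pou5f1, which encodes Oct4, had 3.54, the lowest of all members, and a peak in CTCF ChIP replicate 2 alone (3.42).

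Imprinted genes, expressed from 1 parental copy, were members in 3 of 23 cases, as Meg3, Grb10 and Mest. Meg3 and Grb10 were 8.18% (18 of 220 reads) and 8.13% (39 of 480 reads) methylated, above most members. At Meg3, CTCF fold was 10.5 and 15.9 in M-ChIP, 6.68 and 12.6 in M-ChIP-NC and 16.1 and 18.7 in ChIP. Mest had 0 of 81 methylated reads, which allows up to 3.70%, and a peak in 3 of 6 CTCF libraries.

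Hox genes were members in 4 of 21 cases, in 3 regions, since Hoxc10 and Hoxc5 share 1 region. CTCF folds ran from 13.7 to 17.2 with TPM of 0.09 to 2.23, so these Hox genes were hardly expressed. Of the lineage transcription factors 3 of 12 were members, namely Elf5, a trophoblast factor, Neurog2, a neuronal factor, and Gata6, an endoderm factor. Of 11 DNA methylation genes only Dnmt3a, a de novo methyltransferase, was a member, with a fold of 10.2 and no match.

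Proteasome genes were members in 3 of 36 cases, as Psmc6, Psmd6 and Psmc4, each in 6 of 6 CTCF and 8 of 8 accessibility libraries. Histone genes had the lowest share, with 3 of 57 (5.26%, 1.81% to 14.4%), and the CTCF folds were 7.20 to 13.2. Zinc finger genes named Zfp gave 43 of 342 (12.6%) and solute carriers 45 of 264 (17.0%). Olfactory receptors, which were at 0 or 0.01 TPM, gave 3 of 17, and methylation of these 3 was 13.6% to 25.7%, from 13 to 169 reads.

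**Figure D5:**
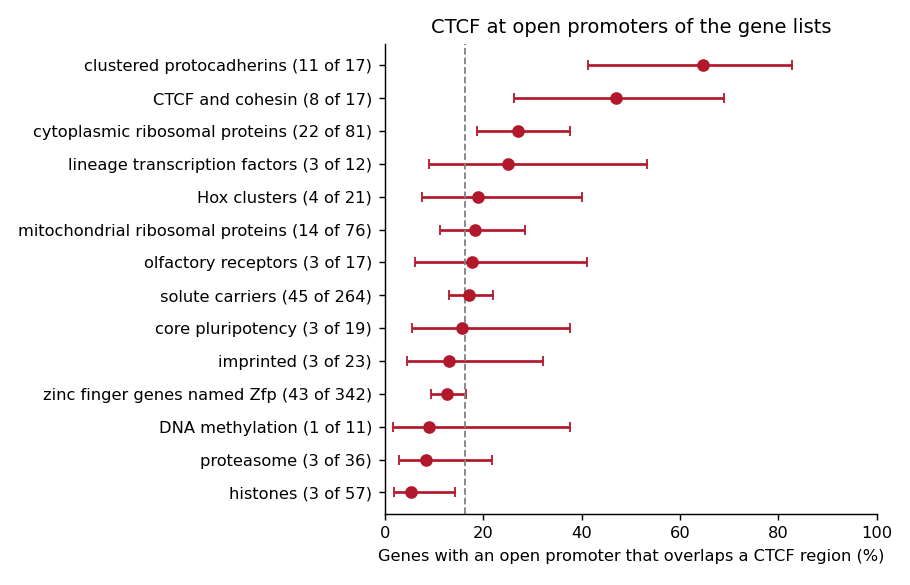
Share of genes with an open promoter that overlaps a CTCF region (x axis, %) for 14 gene lists (y axis, bound of open genes in parentheses), with bars for 95% Wilson intervals and a dashed line at the 16.4% of all genes with an open promoter. The whole intervals of protocadherins (64.7%), CTCF and cohesin (47.1%) and cytoplasmic ribosomal proteins (27.2%) lie above the line, and that of histones (5.26%) lies below it.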

How the data were processed

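The authors trimmed reads with Trim Galore 0.4.4, aligned them to mm10 with Bismark 0.18.1 (M-ATAC, CTCF M-ChIP) or bowtie2 (ATAC, ChIP), filtered with SAMtools 1.3 and called peaks with MACS2 at a q of 0.01. The aligner of the unconverted controls and the tools behind TPM are not given in the sources used here. In the deposited peak lists each summit has a score, a ratio (fold enrichment over background) and −log10 values of p and q. For every cytosine of the pooled replicates, the authors deposited the count of reads with and without methylation and the percent. FIMO scores and p-values of motif matches were deposited as well. Expression was deposited as TPM of the pooled replicates, and KLF4 peaks with a p-value each. Which M-ATAC replicates were merged is not given in the sources used here, and read depth was not analysed here.

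Regions with several summits were counted once, with their highest fold. Cytosines needed at least 5 reads; those of a motif were counted on their own strand. Differences of fold were compared by two-sided exact sign-flip tests over libraries, and shares have 95% Wilson intervals. Limits given for 0 methylated reads are instead 3 over the number of reads. The tests and overlaps were checked on simulated data, and the scan was not. The members and gene lists were chosen with earlier results of these data known. Genes were named by these rules: protein-coding members, the 10 of highest merged CTCF fold with a match in the M-ATAC region, the 5 of highest lower Wilson bound of methylation, the 5 of highest TPM, the 3 of highest fold without a match, and up to 4 of highest fold in each list. A gene that these rules name is not reported here. The exact permutation tests planned for recovery are not given, because the libraries compared also chose the members. Alternatives changed 1 choice at a time. Analyses ran in python 3.11.15 with scipy 1.17.1, pandas 2.3.3, numpy 2.4.6, matplotlib 3.10.9 and pyfaidx 0.9.0.4.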

Additional observations from a re-analysis of the deposited data

Results flagged for a closer look

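In M-ATAC replicate 2, the median fold of bound distal regions was 6.83, farther from the other 3 libraries than Dixon's limit for 4 values allows, and this was 1 of 23 quantities tested, of which chance flags about 1 in 20.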

How the results depend on the processing

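The share of open promoters bound by CTCF was 5.68% with an overlap of at least 50% of both regions, 14.5% within 3 kb, 8.92% with CTCF regions found in both M-ChIP replicates and 14.2% with each summit counted. The motif share was 67.5% at a motif p of at most 1e-05, 88.8% at a −log10 q of at least 5, 93.0% with regions in both replicates and 83.7% inside the M-ATAC region. The methylation difference from unbound promoters was 0.0792 at 10 reads, 0.126 as a mean of cytosines, 0.789 at 50% overlap and 0.129 at the stricter q, and it stayed positive. The motif difference from distal regions was -2.89 at 1 read, -1.93 at 10 reads, -3.40 as a mean of cytosines and -1.94 at 50% overlap, and it stayed negative. The cause of these shifts was not tested. The ATAC fold difference was -0.397 with a peak in every library and -0.722 at 50% overlap, both with an exact sign-flip p of 0.03125. These p-values are no call, since the list that chose the regions came from M-ATAC libraries. Leaving out each library gave -0.232 to -0.189, past no threshold because 5 libraries cannot give a p below 0.0625. The CTCF fold difference was -0.409 with the CTCF M-ChIP-NC libraries added, an exact sign-flip p of 0.03125 that counts portions of the same DNA as separate samples and is no call (4 samples cannot give a p below 0.125), 0.0746 with a peak in every library and 0.437 at 50% overlap, and -0.490 to -0.424 without each library. The difference of median TPM, 0.715 at first, was -1.47 for genes of at least 1 TPM, -0.97 for protein-coding genes, -3.08 at 50% overlap, -0.26 at the stricter q and 0.115 with the gene of the nearest start alone. Recovery in M-ATAC minus ATAC was 2.81 at a −log10 q of at least 5 and -6.17 to 2.60 without each library, and CTCF M-ChIP minus CTCF M-ChIP-NC was -3.84 to 18.1. M-ATAC minus M-ATAC-NC was -10.6 to -4.34, and CTCF M-ChIP minus CTCF ChIP -29.0 to -7.15. At a cover of at least 50% of the member, recovery differed by -21.3 for M-ATAC minus M-ATAC-NC, -12.0 for M-ATAC minus ATAC, 0.914 for CTCF M-ChIP minus CTCF M-ChIP-NC and -28.9 for CTCF M-ChIP minus CTCF ChIP. At the stricter q CTCF M-ChIP minus CTCF ChIP was -27.8. Peak lists, and so recovery, depend on library depth, which was not analysed here.

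Samples with the same replicate number were also compared as pairs (replicate block). The differences were -5.21 for M-ATAC minus M-ATAC-NC, 0.457 for M-ATAC minus ATAC, 7.11 for CTCF M-ChIP minus CTCF M-ChIP-NC and -18.1 for CTCF M-ChIP minus CTCF ChIP. Deviations of same-numbered libraries correlated at -0.0400 to 0.142 over members, and no label says that a number marks a shared source. By the methods, the unconverted controls were portions of the M-ATAC and CTCF M-ChIP DNA, but which portion goes with which replicate number is not given in the sources used here.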

Other observations

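Peak lists were also given for cells that lack Klf4 (Klf4-/-, strain KH2 by the labels). By the methods such cells were infected with a lentivirus, and wild-type KLF4 or the KLF4 mutant R462A was induced with doxycycline. The labels and methods differ on the assay behind the lists of the cells that re-express KLF4. These lists overlapped 8.77% and 15.5% of the members and 7.28% and 13.4% of unbound open promoters with wild-type KLF4. With mutant KLF4 they overlapped 0.256% and 0.585% of the members and 0.127% and 0.282% of unbound open promoters. KLF4 ChIP of the Klf4-/- cells, which measures the background of the antibody, overlapped 10.8% and 13.2% of the members and 8.62% and 10.8% of unbound open promoters, in the range of the lists with wild-type KLF4.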
